A study of Homo sapiens with 6 samples.

Results

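The replication-dependent histone genes were examined as a set of 68 genes out of 20037 protein-coding RefSeq genes of the GRCh38.p14 assembly. They were chosen by symbol and position, as the genes on chromosomes 1 and 6 named H1-1 to H1-6 or H2AC, H2BC, H3C or H4C with a number. The set holds 6 genes of the linker histone H1, 17 of H2A, 18 of H2B, 13 of H3 and 14 of H4. The data are ATAC-seq peak lists of RKO, a colon cancer cell line from ATCC that was grown at 5% O2 and 5% CO2, in 3 samples exposed to 0.2 µM aphidicolin (APH) for 16 h and 3 samples exposed to DMSO. Aphidicolin inhibits the replicative DNA polymerases, and the study describes the 3 samples of each condition as independent experiments. ATAC-seq uses a transposase that inserts sequencing adapters where chromatin is accessible. For every peak called in a sample its list holds the coordinates and a signal, which is the coverage averaged over the 32 nt bins under the peak. This signal was not multiplied by a factor for library size, and since library depth is unknown, unequal depth would also appear as a difference in signal.

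Replication-dependent histone genes supply the proteins that package newly made DNA, and their transcription rises as cells enter S phase. H2A, H2B, H3 and H4 form the nucleosome core, and H1 binds the linker DNA between nucleosomes. The genes are small, lack introns as a rule and lie in clusters, where H2A and H2B genes are often arranged head to head on either side of a shared promoter. Their transcripts end in a stem-loop in place of a poly(A) tail, and the transcription factors that act on them in the cluster, such as NPAT, gather in the histone locus body.

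The DNA just before the start differs between histone types, and the following promoters are shown because they belong to genes with the highest values, the lowest or smallest log2 change, or no peak at all. H2BC11 had the highest value of all members. H2BC8 and H3C2 are the H2B and H3 genes with the lowest log2 change, APH against DMSO, when all peaks within 1 kb are averaged. H1-4 had the highest value of the H1 genes, and H1-5 had no peak in any sample. H2BC6 also had no peak. H4C12 had the change nearest to 0. Each run is the 200 bases before the start in GRCh38.p14, taken from RefSeq and written 5′ to 3′ along the gene. Capitals mark, on either strand, TATAAA (the TATA box), CCAAT (the box bound by NF-Y), ATTTGCAT (the octamer of H2B promoters), GGTCCG (the end of an element of H4 promoters), AAACACA (the H1 box) and the E2F motifs TTTGGCGC and TTTCGCGC.
H2BC11 (chr6:27132796-27132995, minus strand): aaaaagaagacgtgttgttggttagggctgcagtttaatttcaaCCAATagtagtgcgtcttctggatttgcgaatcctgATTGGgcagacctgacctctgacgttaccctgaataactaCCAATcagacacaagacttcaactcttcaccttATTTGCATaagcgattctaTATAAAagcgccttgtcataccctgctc
H2BC8 (chr6:26216689-26216888, minus strand): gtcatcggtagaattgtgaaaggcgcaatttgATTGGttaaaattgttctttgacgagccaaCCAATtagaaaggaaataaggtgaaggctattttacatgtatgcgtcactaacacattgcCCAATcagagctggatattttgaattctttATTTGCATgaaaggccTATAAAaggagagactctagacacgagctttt
H2BC6 (chr6:26183561-26183760, plus strand): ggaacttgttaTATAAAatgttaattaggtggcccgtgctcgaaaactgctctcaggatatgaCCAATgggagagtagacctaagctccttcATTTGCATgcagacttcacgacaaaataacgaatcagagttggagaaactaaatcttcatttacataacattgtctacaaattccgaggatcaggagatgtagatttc
H3C2 (chr6:26032100-26032299, minus strand): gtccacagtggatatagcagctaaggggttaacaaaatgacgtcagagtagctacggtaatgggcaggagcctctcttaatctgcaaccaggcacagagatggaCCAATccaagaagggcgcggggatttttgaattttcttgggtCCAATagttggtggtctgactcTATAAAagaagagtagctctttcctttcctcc
H1-4 (chr6:26156129-26156328, plus strand): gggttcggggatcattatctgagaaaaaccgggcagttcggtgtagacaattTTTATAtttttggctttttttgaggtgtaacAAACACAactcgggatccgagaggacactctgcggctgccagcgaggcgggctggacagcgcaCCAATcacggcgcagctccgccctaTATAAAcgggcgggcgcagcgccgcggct
H1-5 (chr6:27867589-27867788, minus strand): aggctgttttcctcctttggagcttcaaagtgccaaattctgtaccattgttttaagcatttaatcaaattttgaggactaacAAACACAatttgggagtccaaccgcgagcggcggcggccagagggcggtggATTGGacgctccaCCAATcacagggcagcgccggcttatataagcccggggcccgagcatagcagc
H4C12 (chr6:27831561-27831760, minus strand): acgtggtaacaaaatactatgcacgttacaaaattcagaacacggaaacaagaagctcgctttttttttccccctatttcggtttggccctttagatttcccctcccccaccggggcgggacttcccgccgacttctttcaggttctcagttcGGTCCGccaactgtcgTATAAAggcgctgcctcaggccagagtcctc

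Promoter windows of 300 bases, from 250 before to 50 after the start, were on hand for 63 of the 68 members. The 5 members not matched were H2AC12, H3C11, H3C12, H4C1 and H4C3. TATAAA was found in 41 of the 63 windows (65.1%), against 11.95% of 27305 windows of all genes. CCAAT was found in 54 (85.7%) against 35.7%, in every H1, H2A, H2B and H3 window and in 3 of 12 H4 windows. The octamer ATTTGCAT was found in 14 of 18 H2B windows and 11 of 16 H2A windows, against 1.80% of all windows. GGTCCG was found in 11 of 12 H4 windows, against 11.2% of all, and AAACACA in all 6 H1 windows, against 5.76%. An E2F motif was found in 12 member windows (19.0%), against 1.18% of all. None of these motifs contains another, and a match describes the sequence, not binding. Head-to-head H2A and H2B genes share part of their windows, so their matches are not independent. The H3C4 window is the H2AC7 window, and H4C14 and H4C15 have identical windows. H3C14 and H3C15, and also H2AC18 and H2AC19, have nearly identical ones, so these matches are counted more than once. Members with no peak held these letters too. TATAAA was in 30 of 46 windows of members with a peak in every sample and in 10 of 16 windows of members with none, CCAAT in 39 of 46 and 14 of 16, the octamer in 21 of 46 and 5 of 16, AAACACA in 4 of 46 and 5 of 16, and an E2F motif in 11 of 46 and 1 of 16. The median GC content of the 250 bases before the start was 42.8% for members and 62.4% for 15843 protein-coding genes.

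The members lie in 5 clusters, taken as runs of members with gaps of at most 300 kb. In GRCh38.p14 these are chr1:149782689-149887965 with 11 genes, chr1:228457364-228458558 with the pair H2AC25 and H2BC26, chr6:25726063-26285534 with 34 genes, chr6:27132316-27147562 with 5 genes and chr6:27807479-27893891 with 16 genes. A peak was assigned to a gene when its midpoint lay in the gene or within 1 kb of it. By this rule 49 of the 68 members (72.1%) had a peak in every sample, against 75.1% of all protein-coding genes. None was found in any sample for 18 members (26.5%), against 17.8% of all protein-coding genes. By type, a peak in every sample was found for 3 of 6 H1, 13 of 17 H2A, 15 of 18 H2B, 8 of 13 H3 and 10 of 14 H4 genes. By cluster the count was 6 of 11 and 2 of 2 on chromosome 1, and 25 of 34, 5 of 5 and 11 of 16 along chromosome 6. Of the 63 members with a known start, 43 (68.3%) had a peak over that start in every sample, against 50.2% of 15843 protein-coding genes.

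The members without a peak in the lists used here were mostly neighbours of each other, while H1-1, H1-6 and H2BC6 stood alone. In the first cluster of chromosome 6 they were the pair H2AC1 and H2BC1, then H1-1, the neighbours H2BC3 and H3C3, H1-6, H2BC6, and the neighbours H4C6 and H4C7. H2AC1, H2BC1 and H1-6 are known for expression in the testis, and the nearest peak to them lay between 1996 and 6184 bp away for H2BC1, between 2780 and 5470 bp for H2AC1 and between 3318 and 3405 bp for H1-6, depending on the sample. H2BC3, an H2B gene, lay 9649 to 9707 bp from its nearest peak. In the third cluster of chromosome 6 they formed a run of 5 genes, H2AC16, H1-5, H3C11, H4C13 and H3C12. H2AC16 was 14251 to 25426 bp and H3C12 1270 to 2514 bp from the nearest peak. H1-5 encodes a replication-dependent linker histone, and its nearest peak lay 12461 to 25734 bp away. Its promoter, shown above, holds the letters of the H1 box, as that of H1-4 does.

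On chromosome 1 the members without a peak were H4C14, H3C14, H2AC19 and H3C15, which belong to a duplicated block. The promoter windows of H4C14 and H4C15 were identical over 300 bases, those of H3C14 and H3C15 shared a run of 296 bases, and those of H2AC18 and H2AC19 shared a run of 299 bases. The authors kept uniquely mapped reads, so the values of these 6 genes are uncertain, and the part of this in their missing peaks was not tested. H2AC18 was the only member with a peak in some samples, with a value of 46.7 in DMSO 1 and 45.6 in DMSO 3 and no peak in DMSO 2 or in the APH samples. H4C15 had a peak in every sample, though none over its start, and its annotated span of 16753 bp takes in H2AC19 and H3C15. Outside this block the H4C11 and H4C12 windows were 98.3% identical and those of H2AC13 and H2AC14 84.0% identical, and reads may be shared between them too.

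**Figure D1:**
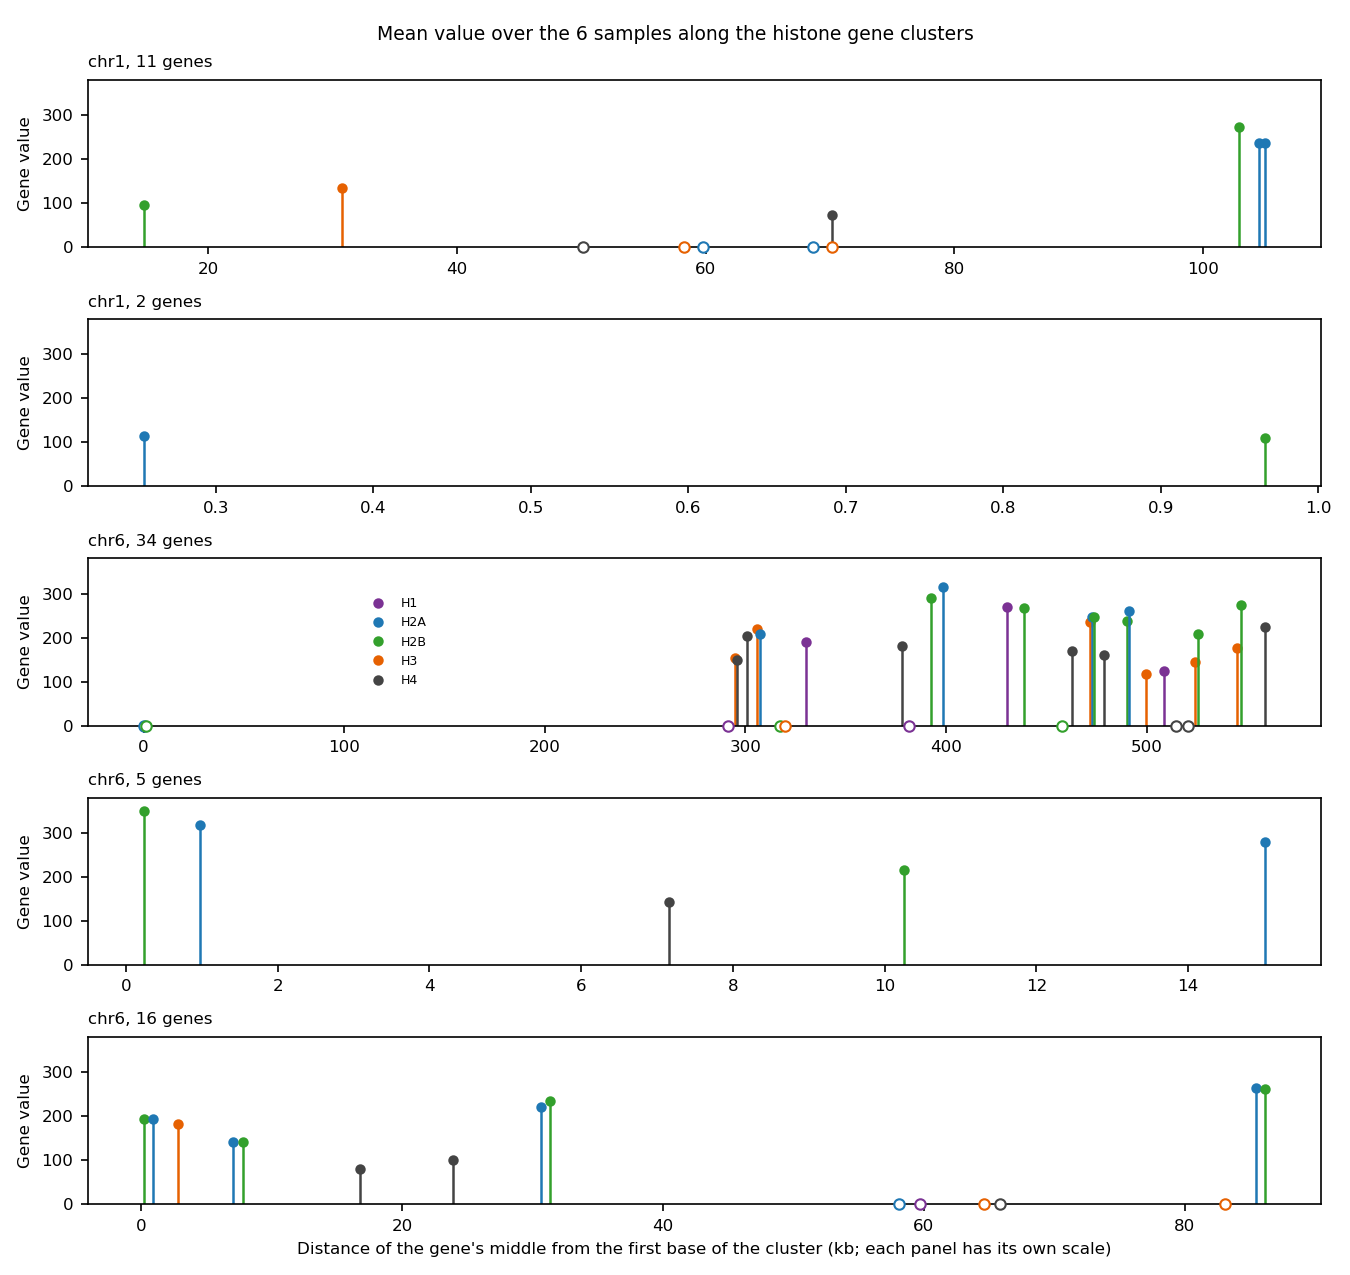
Position of each member, as the distance of its middle from the first base of its cluster in kb (x axis), and its mean value over the 6 samples (y axis, signal in mean coverage per bin), with colours for histone types. Open circles on the axis are the 18 members with no peak in any sample and H2AC18, and several stand side by side, such as the 5 neighbours of the 16-gene cluster, while H1-1, H1-6 and H2BC6 stand alone.

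Each gene was given the average of its peaks, weighted by peak length, as its value. Members with a peak had high values. Their median was 209 over the 6 samples, 1.98 times the median of 105 for all 15043 genes with a peak in every sample, and 45 of the 49 lay above that median. The lowest value was 72.4 for H4C15 and the highest 349 for H2BC11. H2BC11, an H2B gene of the 5-gene cluster, had values of 350, 431 and 386 in DMSO and 303, 338 and 287 in APH. Every APH value lay below every DMSO value. H2AC11, the H2A gene with the highest value and the head-to-head partner of H2BC11, had 341, 389 and 344 in DMSO and 270, 305 and 259 in APH. H2AC6, the highest of the 34-gene cluster, had 313, 437 and 336 in DMSO and 288, 301 and 222 in APH. The log2 change of H2AC6 was −0.42, and −0.27 without DMSO 2. For both H2A genes the groups did not overlap.

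Values differed between histone types. The median over genes was 237 for H2A, 237 for H2B, 191 for H1, 166 for H3 and 155 for H4. In each of the 6 samples the medians of H2A and H2B exceeded that of H1, and that of H1 exceeded those of H3 and H4. The order of H2A and H2B changed between samples, as did that of H3 and H4, so these neighbours did not differ beyond the spread over samples. Mean type medians in DMSO were 269 ± 28.2 for H2A, 267 ± 33.7 for H2B, 218 ± 23.1 for H1, 184 ± 21.6 for H3 and 170 ± 6.99 for H4 (SD, n = 3). In APH they were 206 ± 11.4, 214 ± 18.9, 163 ± 15.3, 143 ± 8.17 and 141 ± 9.28 in the same order (SD, n = 3). Genes of a type share peaks and clusters and are not replicates, and within each type they spread widely. The highest and lowest H1 genes were H1-4 at 271 and H1-3 at 125. Those of H2A were H2AC11 at 318 and H2AC25 at 115, and those of H2B were H2BC11 at 349 and H2BC18 at 94.9. For H3 they were H3C4 at 235 and H3C6 at 118, and for H4 they were H4C8 at 225 and H4C15 at 72.4. The annotated start of H3C4 is that of H2AC7, so its value includes the peak over the H2AC7 and H2BC7 promoter. The value of H2BC18 includes weaker peaks away from its start, and the region over its start had 156.

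By cluster, the median was 279 in the 5-gene cluster of chromosome 6, 209 in the 34-gene cluster and 194 in the 16-gene cluster. On chromosome 1 it was 185 in the 11-gene cluster and 112 for the pair H2AC25 and H2BC26. The 5-gene cluster was the highest and the pair the lowest in each of the 6 samples. The order of the other 3 changed between samples. The 16-gene cluster was above the 34-gene cluster in DMSO 2 (269 against 264), and below the 11-gene cluster in DMSO 3 (179 against 192) and APH 3 (141 against 151). The genes with the highest values were H2BC21 at 274 in the 11-gene cluster and H2AC17 at 265 in the 16-gene cluster. H2BC21 had 308, 343 and 263 in DMSO and 234, 294 and 204 in APH, so that the groups overlapped, and its log2 change was −0.33, and −0.21 without APH 3. H2AC17 had 264, 336 and 318 in DMSO and 245, 225 and 200 in APH, without overlap. H2AC25 had 122, 145 and 119 in DMSO and 98.8, 99.6 and 103 in APH, the lowest level of any H2A gene with a peak in every sample.

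The signal at paired genes lay over both starts. Of the members with known starts, 11 pairs, each an H2A and an H2B gene, were arranged head to head with starts 194 to 248 bp apart. A single region, made by joining peaks of any sample with an overlap of 1 bp or more, covered both starts in 10 of the 11 pairs. The exception was the testis pair H2AC1 and H2BC1. The region of H2BC11 and H2AC11 (chr6:27132260-27133503) had the highest value, with 386, 431 and 386 in DMSO and 303, 338 and 287 in APH. The region of H2AC25 and H2BC26 (chr1:228457305-228458723) had the lowest, with 122, 145 and 119 in DMSO and 98.8, 99.6 and 103 in APH. In both regions all APH samples lay below all DMSO samples. In all, 61 regions were assigned to members and 47 of them had a peak in every sample. These 47 regions had a median length of 858 bp and a median value of 184, against 451 bp and 68.5 over all 50150 such regions. By the number of known member starts they cover, the median value was 266 for 9 regions over a pair of starts, 183 for 24 regions over a single start and 159 for 13 regions over none. Starts of members without a promoter window are not counted, so the regions at H4C3 and H2AC12 may cover another start. The remaining region covers the starts annotated for H3C4, H2AC7 and H2BC7 and had a value of 248. Between the members, inside the cluster spans, lay 17 regions with a peak in every sample, and their median value was 60.3.

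The comparison of APH with DMSO asks whether accessibility at these genes differed under mild replication stress. The log2 change was fitted with limma on log2(value + 1) over all 15043 genes, which understates the change of low genes. All 49 members had a lower mean in APH on this scale, but so did 85.5% of all genes tested. None of the 49 passed the threshold of 0.05 for the Benjamini-Hochberg adjusted p of limma, against 3 genes (0.0199%) in either direction over all genes, and the smallest adjusted p of a member was 0.0567. This count depends on the fit. It was 33 of 49 lower when the typical (median) width of peaks in a sample entered the fit as a covariate, against 14.0% of all genes, and 31 lower with the sum of value times length, against 16.0%. With a block for replicate number 34 were lower, against 31.9% of all genes. Whether these numbers pair the samples is not known. At an unadjusted p under 0.05, 29 of the 49 were lower and 0 higher, against 31.8% and 0.844% of all genes. All APH samples lay below all DMSO samples for 29 of the 49 members (59.2%), against 35.6% of all genes. The reverse was found for 0 members, against 1.25% of all genes. The median change of the members was −0.33 (log2) and that of all genes −0.21, a difference of −0.11, and 40 of the 49 lay below the median of all genes. Most of this difference rested on 2 samples, since it was −0.03 without DMSO 2 and −0.03 without APH 3, while it was −0.20 without DMSO 3. The difference was −0.24 with peak width in the fit and −0.21 with the sum of value times length. The shift of all genes depends on scaling. It was 0.03 with centring on the sample medians and −0.00 with quantile normalization. The members' median was then −0.09 and −0.05, which is below that of all genes, and 11 and 14 of the 49 members were above 0. Centring adds the same amount to every gene, so the 11 were the members with changes nearest to 0. The direction of single genes thus depends on scaling. In these bulk samples, a site open in fewer cells and a site less open in each cell cannot be told apart.

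Changes were more negative at genes with high values in general, and most members have high values. With the 15043 genes divided by level into 10 groups of equal size, 20 members were in the highest group and 12 in the next. In the highest group the median change was −0.33 for the members and −0.28 for all genes, and in the next −0.36 and −0.28. All APH samples were below all DMSO samples for 14 of the 20 and 8 of the 12 members, against 50.4% and 52.1% of all genes in these groups. In the other 8 groups 8 of 17 members lay below the median of their group. Among them, the group ranked 7 from the bottom held 6 members with a median change of −0.17 against −0.27 for all genes, and that ranked 5 held 2 with −0.12 against −0.23. The groups ranked 6 and 4 went the other way, with 3 members at −0.36 against −0.25 and 1 at −0.23 against −0.21. Over all groups 35 of 49 members lay below the median of their own group, and the median difference from it was −0.05.

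**Figure D2:**
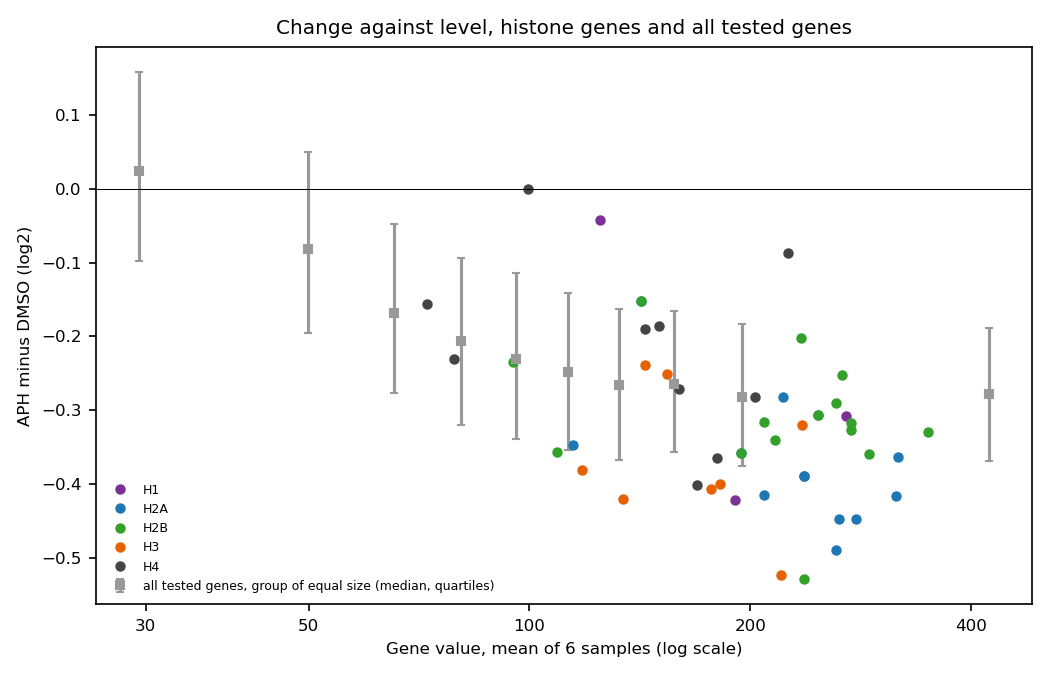
Log2 change, APH minus DMSO (y axis), against the mean value over the 6 samples (x axis, log scale) for the 49 members with a peak in every sample, coloured by type. Grey squares and bars are the median and quartiles of the change in 10 groups of all 15043 tested genes, drawn at the middle of each group's range of levels, and 35 of the 49 members lie below the median of their own group. Values are as deposited, and 11 to 14 members turn positive under the other scalings.

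With all peaks within 1 kb averaged, the lowest log2 changes were at H2BC8, H3C2 and H2AC8. H2BC8, an H2B gene, had values of 255, 299 and 287 in DMSO and 196, 204 and 182 in APH, a log2 change of −0.53 (SE 0.11, limma adjusted p = 0.0567). H2AC8, its head-to-head partner, had 283, 348 and 287 in DMSO and 218, 229 and 204 in APH, a change of −0.49 (SE 0.12, limma adjusted p = 0.0622). H3C2, an H3 gene of the same cluster, had 256, 276 and 248 in DMSO and 175, 179 and 188 in APH, a change of −0.52 (SE 0.10, limma adjusted p = 0.0567). At all 3 genes every APH sample lay below every DMSO sample, and the change stayed below 0 under both other scalings. The adjusted p did not pass 0.05 at any of them in this fit. With peak width in the fit, the limma adjusted p was 0.0228 for H2BC8, 0.0220 for H2AC8 and 0.0247 for H3C2. With the sum of value times length it was 0.0418 for H2BC8, 0.0258 for H2AC8 and 0.0965 for H3C2. Without APH 3 it was 0.0515, 0.0689 and 0.0391 in the same order, and with any other sample left out it lay between 0.0750 and 0.230.

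The place of H3C2 among these 3 rests on a weak peak. Its average in APH 1 and APH 2 includes a peak at chr6:26032541-26032789, with values of 95.4 and 98.1, that the other 4 samples lack. Over its start alone (chr6:26031698-26032399) H3C2 had 256, 276 and 248 in DMSO and 205, 206 and 188 in APH, still without overlap, and a change of −0.38. The H3 genes H3C13, H3C8 and H3C10 were at −0.42, −0.41 and −0.40 over their starts, below H3C2. H2BC8 and H2AC8, which share the peak over their starts, were the lowest by that peak too, at −0.49. With the sum of value times length H3C2 was at −0.30, H2BC8 at −0.40 and H2AC8 at −0.52, and H3C4, H4C8 and H2BC21 were lower, at −0.63, −0.57 and −0.56. With peak width in the fit H2AC6, at −0.69, was below H2BC8 at −0.64, H2AC8 at −0.64 and H3C2 at −0.56.

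With all peaks within 1 kb averaged, the smallest changes were at H4C12, H1-3 and H4C8. H4C12 had 101, 102 and 95.1 in DMSO and 112, 95.1 and 92.2 in APH, a change of −0.00 (SE 0.12). H1-3, the H1 gene with the lowest value, had 117, 148 and 115 in DMSO and 120, 132 and 115 in APH, a change of −0.04 (SE 0.13). H4C8, the H4 gene with the highest value, had 204, 270 and 218 in DMSO and 226, 268 and 166 in APH, a change of −0.09 (SE 0.18). The groups overlapped at all 3 genes. With samples centred on their medians the changes were 0.24 for H4C12, 0.20 for H1-3 and 0.15 for H4C8, and with quantile normalization they were 0.23, 0.21 and 0.18. Centring adds the same amount to every gene and so turns the smallest changes first, and the direction at these genes depends on scaling. The changes at all 3 genes depend on the way peaks are combined too. H4C8 has a weaker peak at chr6:26286354-26286624, found in all DMSO samples and APH 3 with values from 82.1 to 127, which lowers its average in those samples. Over its start alone H4C8 had 233, 319 and 252 in DMSO and 226, 268 and 188 in APH, with overlap, and a change of −0.24. H4C9 and H2AC14, at −0.10 and −0.15, were then nearer to 0. With the sum of value times length H4C8 was at −0.57 (limma adjusted p = 0.0257), H4C12 at −0.46 (limma adjusted p = 0.0581) and H1-3 at −0.045. H1-3 was at −0.12 over its start and at 0.14 in its other region (chr6:26233543-26234316). With peak width in the fit H4C8 was at −0.37, H1-3 at −0.22 and H4C12 at −0.03.

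**Figure D3:**
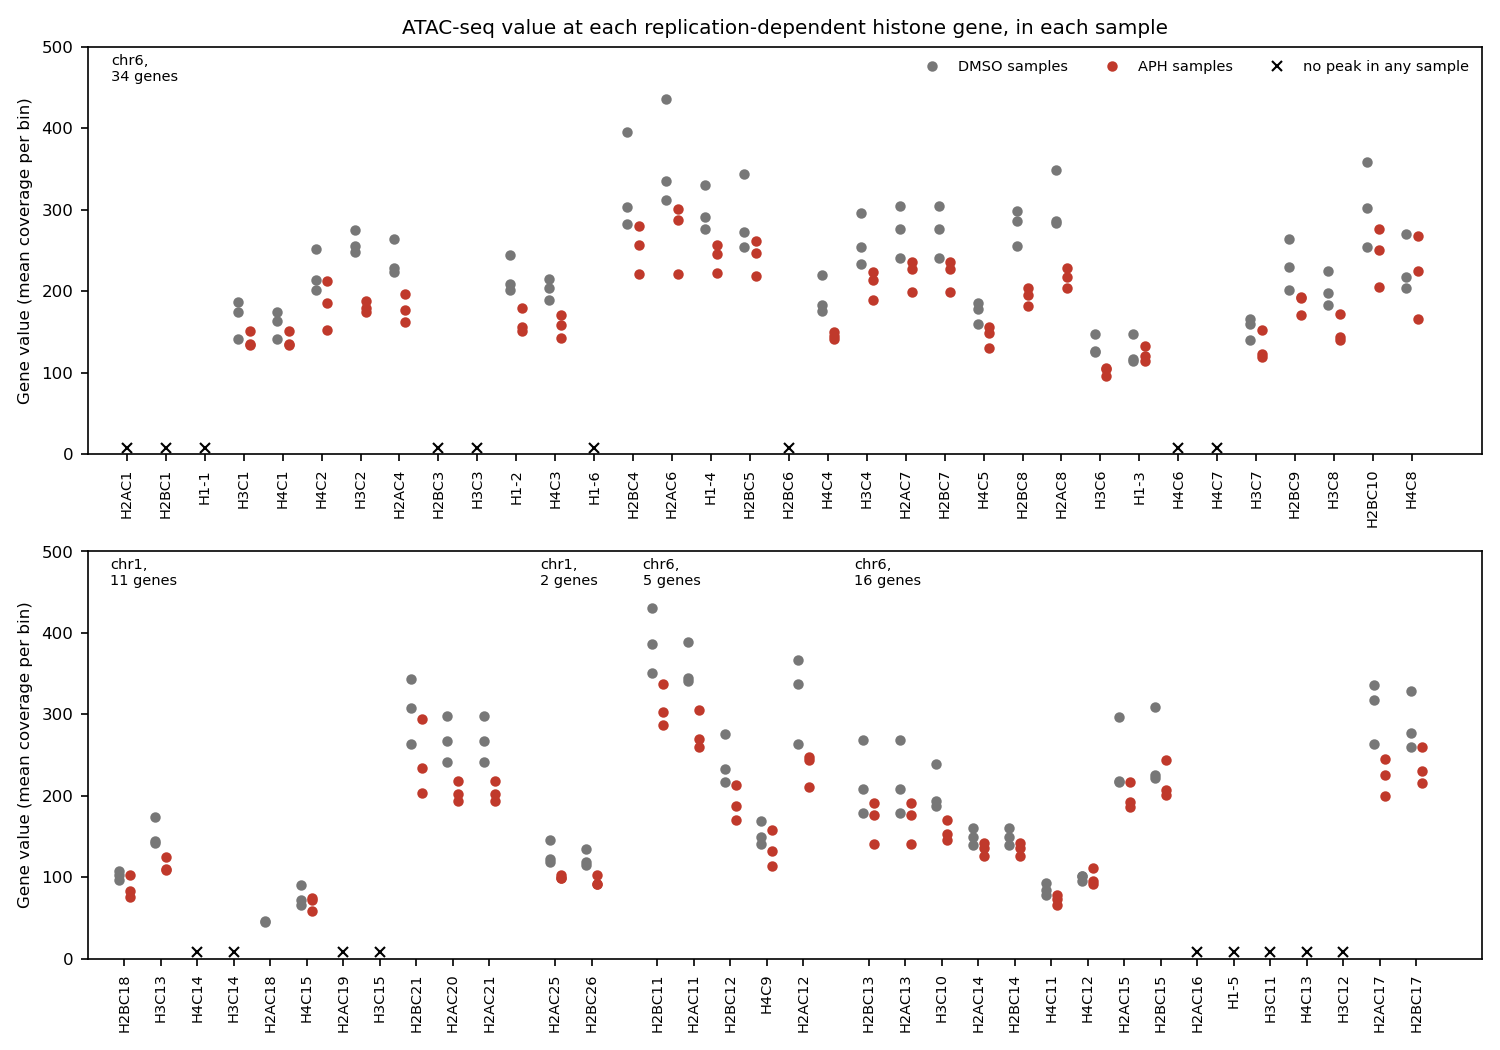
Value of each member (y axis, signal in mean coverage per bin) in the 3 DMSO samples (grey) and the 3 APH samples (red), in genome order within each cluster. Crosses are the 18 members with no peak in any sample. The APH points lie below all DMSO points at 29 of the 49 genes with a peak in every sample, such as H3C2 and H2BC8, and overlap them at H4C12 and H4C8. Values are as deposited.

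Among the other genes at the ends of their type's range, H1-4 had 291, 330 and 277 in DMSO and 246, 256 and 222 in APH, a change of −0.31 (SE 0.12), with no overlap of the groups. H3C4, the highest H3 gene, had 255, 297 and 233 in DMSO and 214, 224 and 189 in APH, a change of −0.32 (SE 0.13), again with no overlap. H3C6, the lowest H3 gene, had 148, 127 and 126 in DMSO and 106, 105 and 96.0 in APH, a change of −0.38 (SE 0.11), with no overlap. H2BC18, the lowest H2B gene by this average, had 103, 107 and 96.9 in DMSO and 75.7, 103 and 83.7 in APH, a change of −0.23 (SE 0.13), and the groups overlapped. Over its start alone (chr1:149812023-149812716) it had 166, 197 and 174 in DMSO and 127, 150 and 122 in APH, a change of −0.42 without overlap. With the sum of value times length the change of H2BC18 was −0.42 (limma adjusted p = 0.0404). H4C15 had 66.3, 90.7 and 72.7 in DMSO and 72.1, 74.0 and 58.8 in APH, a change of −0.16 (SE 0.15), with overlap. It was −0.40 with peak width in the fit, −0.36 with its highest peak and −0.34 with the sum of value times length, but −0.019 with only peaks in the gene. With samples centred on their medians the changes of H2BC18 and H4C15 were above 0, at 0.0039 and 0.082. With single samples left out, H2BC18 ranged from −0.36 without APH 2 to −0.14 without APH 1, and H4C15 from −0.25 without DMSO 1 to −0.03 without DMSO 2, with −0.05 without APH 3.

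Neighbours that share peaks were not independent. The head-to-head pairs H2AC7 and H2BC7, H2BC13 and H2AC13, and H2AC14 and H2BC14 had the same peaks and the same values, as did H2AC20 and H2AC21, whose ends face each other. The regions over both starts had log2 changes from −0.49 at H2BC8 and H2AC8 to −0.15 at H2AC14 and H2BC14. At the latter pair (chr6:27814654-27815409) the values were 149, 160 and 140 in DMSO and 126, 142 and 136 in APH, and the groups overlapped. At the neighbouring pair H2BC13 and H2AC13 (chr6:27807541-27808405) they were 235, 269 and 199 in DMSO and 177, 191 and 155 in APH, a change of −0.42 with no overlap. The pair H2AC15 and H2BC15 (chr6:27838037-27839046) had 248, 354 and 248 in DMSO and 242, 280 and 227 in APH, a change of −0.17 with overlap. The pair H2AC17 and H2BC17 (chr6:27892865-27893792), on the far side of the run of genes without a peak, had 296, 382 and 318 in DMSO and 245, 260 and 231 in APH, a change of −0.43 with no overlap. These 4 pairs lie in the 16-gene cluster, and all APH samples were below all DMSO samples at 2 of them. Over all clusters, 7 of the 9 regions that cover only a pair of starts had all APH samples below all DMSO samples, against 14.4% of all regions. These 9 regions were stronger than most, with a median value of 266 against 68.5 for all regions. Over all tested genes this share rose with level, from 5.25% in the lowest of 10 groups to 50.4% in the highest.

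By type the median change was −0.39 for H2A, −0.39 for H3, −0.32 for H2B, −0.31 for H1 and −0.21 for H4, which equals that of all genes to the second decimal. All APH samples lay below all DMSO samples for 10 of 13 H2A, 6 of 8 H3, 7 of 15 H2B, 2 of 3 H1 and 4 of 10 H4 genes, against 35.6% of all genes. In the level groups of all genes that hold the type medians, this share was 50.4% for H2A and H2B, 52.1% for H1 and 48.7% for H3 and H4. The H4 genes had the widest range of changes, from −0.40 at H4C4 to −0.00 at H4C12. With quantile normalization the medians were −0.11 for H2A, −0.13 for H3, −0.04 for H2B, −0.02 for H1 and 0.01 for H4, so the direction for H4 flipped. It also did with centring (0.03), which adds the same amount to every gene, and the H4 median was the one nearest to 0. No test of the difference between types was made, since genes of a type are not replicates. By cluster the medians were −0.36 in the 11-gene cluster and −0.35 for the pair on chromosome 1, and −0.32, −0.34 and −0.28 along chromosome 6. The last of these, the 16-gene cluster, was 0.00035 after quantile normalization, −0.45 with peak width in the fit and −0.53 with the sum of value times length, and it was −0.17 without DMSO 2.

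**Figure D4:**
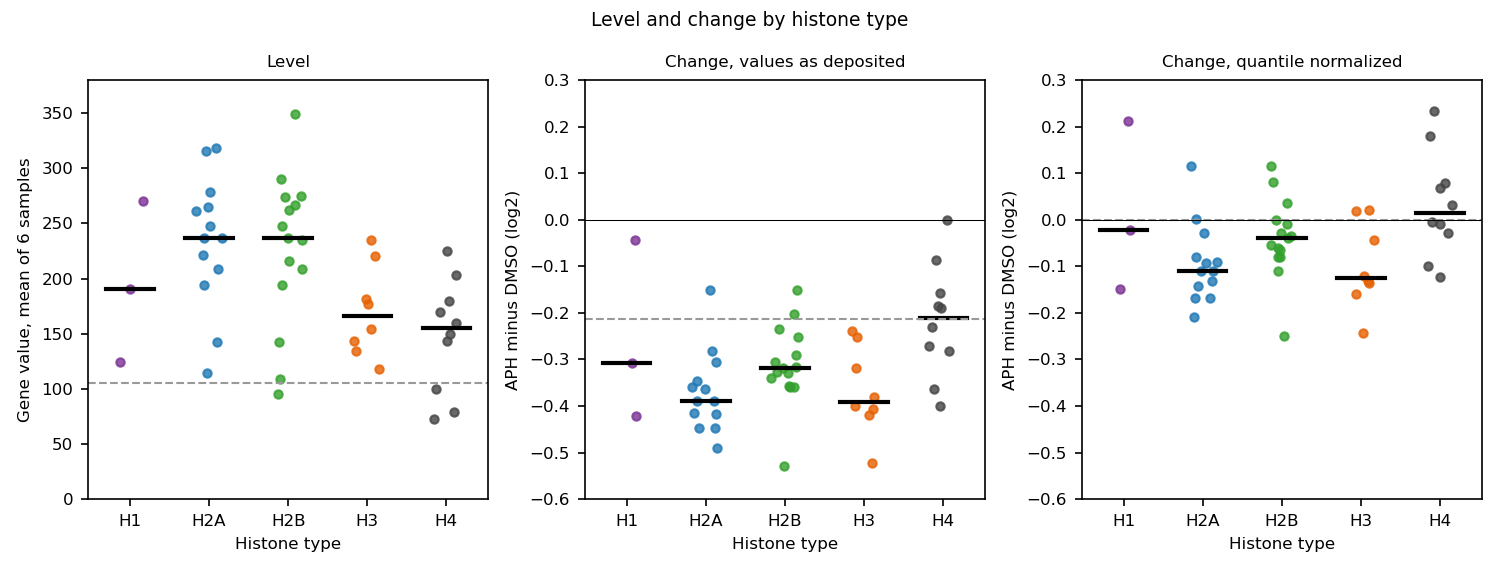
Value (left) and log2 change, APH minus DMSO, of values as deposited (middle) and after quantile normalization (right), for the 49 members with a peak in every sample by histone type. Points are genes, black bars the median of each type and dashed lines the median of all 15043 tested genes. H2A and H2B have the highest median value at 237 each, and the median change of H4 is −0.21 as deposited and 0.01 after quantile normalization.

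Regions count each peak once, while neighbouring genes can share one. Of the members' 47 regions with a peak in every sample, none passed the adjusted p of limma, and neither did any of all 50150 (0%). With peak width in the fit, 32 of the 47 were lower, against 10.6% of all regions. At an unadjusted p under 0.05, 29 of the 47 were lower and 0 higher, against 10.1% and 2.46% of all regions. All APH samples lay below all DMSO samples for 30 of the 47 (63.8%), against 14.4% of all regions, and the reverse held for 0, against 4.21%. The median change was −0.34 for the 47 regions and −0.06 for all. It was −0.14 for the members and −0.01 for all with quantile normalization, and −0.23 and 0.04 without DMSO 2. The members' regions were stronger than most, as their median value shows. For genes, the share with all APH samples lower rose with level, from 5.25% in the lowest of 10 groups to 50.4% in the highest. The 17 regions between members had a median change of −0.13, and for 3 of them all APH samples lay below all DMSO samples. Over gene starts alone, a choice made after seeing the data, the median change was −0.36 for 43 members and −0.28 for all genes with such a peak.

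The peaks at the members numbered 62, 60 and 58 in DMSO and 59, 60 and 55 in APH, with means of 60 ± 2 and 58 ± 2.65 (SD, n = 3). Those at all protein-coding genes numbered 42176 ± 3876 in DMSO against 46828 ± 3907 in APH (SD, n = 3). The groups overlapped in both counts. The peaks at the members covered 43.0, 41.0 and 41.3 kb in DMSO and 37.7, 38.0 and 40.7 kb in APH, without overlap. Their mean value was 178, 217 and 179 in DMSO and 153, 164 and 144 in APH, again without overlap, but the mean value of all peaks did not overlap between conditions either (82.2 ± 3.55 in DMSO, 71.2 ± 1.79 in APH, SD, n = 3). Relative to that mean of all peaks, the members' peaks were higher by 1.19, 1.35 and 1.11 (log2) in DMSO and by 1.14, 1.17 and 1.02 in APH, and the groups overlapped. An exact permutation test of 3 against 3 samples cannot go below p = 0.1, so none is given for these values.

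DMSO 2 and APH 3 stood apart at the members. DMSO 2 had the highest value at 45 of the 49 genes and APH 3 the lowest at 40. These counts were made for the members only. Over all peaks DMSO 2 also had the highest mean value (85.2), while APH 1 had the lowest (69.4, against 71.0 in APH 3). Without DMSO 2 the median change of the members was −0.23 and that of all genes −0.19, and without APH 3 they were −0.25 and −0.22. The number of peaks per sample ranged from 64511 to 77194 in DMSO and from 70121 to 84510 in APH. Of 7 epithelial marker genes 5 had a peak in every sample, namely EPCAM, KRT8, KRT18, CDH1 and CDX2. VIL1 had a peak in 4 samples and KRT19 in none. Of 8 markers of other cell types 4 had a peak in every sample, namely PTPRC, COL1A1, COL1A2 and PECAM1, while CD3E and ALB had none in any sample. Their part in the values at the members was not tested.

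Other genes of the pathway were compared from listed names. Of 13 genes of histone variants, which are made outside S phase or replace the standard histones at particular places, 10 had a peak in every sample and 0 passed the adjusted p of limma in either direction. Their median value was 184 and their median change −0.25, against −0.21 for all genes, ranging from −0.45 at H2AZ2, an H2A.Z gene, to −0.11 at CENPA, the H3 variant of centromeres. H2AZ2 had 309, 349 and 326 in DMSO and 230, 244 and 246 in APH, without overlap (limma adjusted p = 0.0607). CENPA had 327, 426 and 285 in DMSO and 318, 372 and 266 in APH, with overlap. All APH samples lay below all DMSO samples for 2 of the 10, against 35.6% of all genes and 52.1% of those in the level group that holds their median value.

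Of 28 genes that act in histone gene transcription, transcript processing or histone deposition, all 28 had a peak in every sample and 0 passed in either direction. Their median value was 147 and their median change −0.33, against −0.21 for all genes. All APH samples lay below all DMSO samples for 14 of them, against 35.6% of all genes and 48.7% of those in the level group that holds their median value. The lowest change was −0.65 at CSTF2T, a cleavage stimulation factor gene, with 67.5, 77.1 and 67.7 in DMSO and 39.8, 52.0 and 42.8 in APH (limma adjusted p = 0.0567). The highest was −0.13 at DAXX, a chaperone of the variant histone H3.3 (limma adjusted p = 0.391).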

How the data were processed

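Peak lists from ATAC-seq of RKO cells, 3 DMSO and 3 APH samples, were read. The authors deposited 1 list per sample, with peak coordinates and a signal, the average coverage under the peak in bins of 32 nt, with each alignment lengthened to 200 bp. The submitters' processing notes name hg38, BWA 0.7.12 and MACS2 2.1.0, and peaks were called per sample without a control after duplicates and reads that did not map uniquely were removed. The signal was not multiplied by a factor for library size, since value times number of bins was whole (within 0.06) for at least 99.995% of the peaks tested. Thinning of reads to equal depth would leave these products whole too and was not tested. Depth is unknown, so no counting interval is given.

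The members, lists and alternatives were chosen with earlier results of these data known. Genes were RefSeq GRCh38.p14, and H2AC25 and H2BC26 stayed members. Peaks with a midpoint in a gene or within 1 kb were averaged by length, and genes or merged regions with a peak in every sample were fitted with limma 3.58.1 (R 4.3.3) on log2(value + 1) with an intensity trend, over the whole table. Benjamini-Hochberg adjustment was over all features tested, at 0.05. Motifs were exact letters on both strands, and where RefSeq gave several windows for a gene the first was used. Genes were named by rule: the highest and lowest value of each type, the highest of each cluster, the 3 largest and 3 smallest changes, genes with a peak in some samples, testis genes and the highest and lowest change in each list. Other members are named for position, shared sequence or peak absence. H3C8, H3C10, H3C13, H4C4, H4C9 and the genes of neighbouring pairs were named after their values were seen. Tested on simulated data, limma was given known changes. Of 50 genes changed by 0.5 (log2) among 15043 it recovered 26.0%, with 74.0% of 50 changed by 1, 98.0% by 2 and 100% by 4. It made 5 false calls among these genes. Among 50150 regions it recovered 2.0% of 50 changed by 0.5, 42.0% of 50 changed by 1, 98.0% by 2 and 100% by 4, with 3 false calls. Python 3.11.15, numpy 2.4.6, pandas 2.3.3 and matplotlib 3.10.9 were used.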

Additional observations from a re-analysis of the deposited data

How the results depend on the processing

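The depth of the libraries is unknown, and 3 samples per condition limit what the fit can call. The median change of the members stayed below 0 under every alternative run. For genes it was −0.33, but −0.088 with centring and −0.054 with quantile normalization. It was −0.48 with peak width as a covariate and −0.43 with the sum of value times length. With peak width the median of the H2B genes was −0.48 and that of the H4 genes −0.38. For regions it was −0.34, but −0.14 with quantile normalization. The number of member genes called, 0 of 49, became 34 with a replicate block, 33 with the median peak width as a covariate and 31 with the sum of value times length, all lower in APH, while over all 15043 genes 4802, 2110 and 2412 were called lower. For regions, 0 of 47 became 32 with the replicate block and 32 with the peak width, while 11.1% and 10.6% of all 50150 regions were called lower. Same-numbered DMSO and APH samples had deviations from their group means that correlated at −0.05, 0.50 and 0.52 over genes, and number 1 did not correlate best with its own number, so the numbers were not taken to pair the samples. With each sample left out in turn, 0 to 1 member genes were called. The 1 was H3C2 without APH 3, when 6.91% of all genes were called lower. The median changes ranged from −0.40 to −0.23 for genes and for regions. The difference in peak number at members, −2, ranged from −3 to −0.5 with samples left out and stayed below 0 under the other alternatives.

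Among the genes named by rule and the medians of types and clusters, changes reversed as follows. With centring, H2BC18 was 0.0039, H4C15 0.082, H1-3 0.20, H4C8 0.15, H4C12 0.24 and the H4 median 0.028. With quantile normalization, H4C15 was 0.032, H1-3 0.21, H4C8 0.18, H4C12 0.23, the H4 median 0.014 and that of the 16-gene cluster 0.00035. H4C12, at −0.00019, was 0.00014 with a pseudocount of 10, 0.055 with peaks within 2 kb and 0.072 with its highest peak. With samples left out, H4C12 ranged from −0.085 to 0.053, H1-3 from −0.11 to 0.073 and H4C8 from −0.24 to 0.10. The cause of these changes was not tested.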
